A study of Mus musculus with 12 samples.

Results

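The genes of DNA replication and cell division were examined in the embryonic mouse humerus, in Runx2-null animals against wild type. The set held 40 genes, listed by name: 16 of DNA replication, 16 of mitosis and 8 of G1 control. Every probe set annotated to exactly 1 gene symbol, and that symbol one of the 40, was taken, which gave 71 of the 36701 probe sets that are not hybridization controls. They covered 39 of the 40 genes, of 15964 genes with such a probe set in all; Ccnb1, which encodes cyclin B1, had none. Humeri were collected at stage E14.5 from embryos labelled Runx2 -/- and from embryos labelled wild type, with no strain, treatment or sex given. Each genotype was represented by 2 biological replicates, each an RNA pool of about 60 humeri in Runx2-null embryos and about 75 in wild type. Each pool was hybridized to the 3 arrays of a set (A, B and C), which made 12 arrays, so that the spread within a genotype is that between pools and not between animals. Runx2 itself is not analysed here, and the genotypes are those of the labels.

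The cell cycle runs on cyclins, which switch on cyclin-dependent kinases in turn. D-type cyclins with Cdk4 or Cdk6, and then cyclin E with Cdk2, release the E2F factors from the retinoblastoma proteins, after which genes for the helicase that opens DNA, the polymerases and the supply of nucleotides are transcribed. Mitotic genes follow later, many of them through the DREAM and MuvB complexes at a promoter element called the cell cycle genes homology region (CHR). In a growing long bone the flattened columnar chondrocytes divide, whereas hypertrophic chondrocytes have left the cycle. Runx2 is a DNA-binding protein needed to form osteoblasts, and it promotes the hypertrophy of chondrocytes.

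The replication and mitosis genes differ in the elements that their promoters carry, which is why 2 of each are shown. RefSeq promoters of GRCm38.p6 were available for 35 of the 40 genes (a gene with several windows counts once), as windows of 250 bases before to 50 bases after the transcription start. Below are the 250 bases before the start, read 5′ to 3′ on the gene's strand. Capitals mark matches, on either strand, to an E2F element (TTTGGCGC, TTTCGCGC, TTTCCCGC or TTTGCCGC), a CHR (TTTGAA or TTCGAA) or a CCAAT box. Mcm5 and Mcm6 encode subunits of the replicative helicase, Cdc20 an activator of the ligase that triggers anaphase, and Cdk1 the mitotic kinase.
Mcm5, chr8:75109259-75109508, plus strand: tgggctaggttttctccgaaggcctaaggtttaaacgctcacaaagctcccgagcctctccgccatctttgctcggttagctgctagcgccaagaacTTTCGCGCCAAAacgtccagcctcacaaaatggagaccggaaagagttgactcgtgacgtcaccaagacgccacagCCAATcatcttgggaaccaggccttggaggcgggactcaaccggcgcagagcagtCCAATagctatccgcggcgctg
Mcm6, chr1:128359706-128359955, minus strand: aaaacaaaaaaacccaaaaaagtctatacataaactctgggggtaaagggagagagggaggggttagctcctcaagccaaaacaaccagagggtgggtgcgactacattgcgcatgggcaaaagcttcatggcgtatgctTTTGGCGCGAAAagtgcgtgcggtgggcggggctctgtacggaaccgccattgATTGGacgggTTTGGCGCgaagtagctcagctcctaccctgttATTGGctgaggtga
Cdc20, chr4:118437344-118437593, minus strand: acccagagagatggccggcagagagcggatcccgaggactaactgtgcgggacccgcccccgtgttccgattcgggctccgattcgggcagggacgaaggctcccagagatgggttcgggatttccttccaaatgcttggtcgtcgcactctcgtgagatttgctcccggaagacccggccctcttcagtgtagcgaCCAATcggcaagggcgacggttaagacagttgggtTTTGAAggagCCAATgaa
Cdk1, chr10:69352913-69353162, minus strand: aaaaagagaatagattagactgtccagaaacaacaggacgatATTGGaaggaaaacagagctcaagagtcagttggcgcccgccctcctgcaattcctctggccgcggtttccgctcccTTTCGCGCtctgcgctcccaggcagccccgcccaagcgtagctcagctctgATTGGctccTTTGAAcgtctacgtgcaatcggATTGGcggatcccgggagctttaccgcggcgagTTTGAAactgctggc
In Mcm5 and in Mcm6, a pair of E2F matches on opposite strands overlap.

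A CHR was found in 11 of 14 mitosis promoters (78.6%), in 3 of 15 replication promoters (20%) and in 0 of 6 G1 promoters, against 21.7% of the promoters of 27025 genes. An E2F element was found in 7 of 15 replication promoters (46.7%), in 1 of 14 mitosis promoters, that of Cdk1 (7.14%), and in 1 of 6 G1 promoters, that of Cdk2, against 2.6% of all promoters. The CCAAT box was present in 12 of 14 mitosis promoters (85.7%) and 10 of 15 replication promoters (66.7%), against 41.1% of all. The letters TGTGGT, a core recognised by Runx proteins, occurred in 7 of 35 of these promoters on either strand (20%), against 18.9% of all promoters. These are matches of letters, and binding was not measured.

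Across the 37 genes that could be tested on arrays A and B, the genotypes differed little. The values are MAS5 signals, an intensity per probe set that the authors scaled to a common mean on every array, and folds are differences of log2(signal + a small constant), Runx2-null minus wild type. The brightest tested probe set stood for a gene. The median log2 fold of the 37 genes was 0.01, with a range of -0.54 to 0.51, against a median of 0.01 over all 10032 genes. The fold was positive in 20 of the 37 genes, against 51.5% of all genes. By group, the median was 0.10 for 14 replication genes, -0.14 for 15 mitosis genes and 0.14 for 8 G1 genes. The summed signal of the 37 genes was 10286 and 10555 in the Runx2-null pools, against 10231 and 10394 in the wild-type pools. Wild-type pool 2 lay between the Runx2-null pools and wild-type pool 1 just below both, so the groups overlapped.

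With limma, 0 of the 45 probe sets tested on arrays A and B passed a Benjamini-Hochberg adjusted p of 0.05, and 0 had an unadjusted p under 0.05. The same fit called 0.0259% of all probe sets on the 3 arrays and 0.0256% of those on arrays A and B, where 2.06% had an unadjusted p under 0.05. Because pools with the same number were scanned together, the fit was also made with the replicate number as a block. It called 343 of 15601 probe sets (2.2%) and again 0 of the 45, or 0 of the 37 genes against 2.39% of all genes. Scan batch and pool number coincide, so a difference between scans and one between the pooled tissues cannot be told apart. Batch below stands for both. The lowest adjusted p among the 45 was 0.774 without the block and 0.116 with it. With the block, 4 of the 37 genes (1 higher and 3 lower) had an unadjusted p under 0.05, against 15.5% of all genes. A test that was missed does not show that the genotypes were alike, so intervals were set against a limit of 2-fold either way. The 95% interval lay inside it for 37 of 37 genes with the block and for 30 without, against 87.9% and 52.7% of all genes. The intervals with the block rest on 1 residual degree of freedom and on variances drawn toward a trend with intensity. None is given without that trend, so the count of 37 holds only under it.

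**Figure D1:**
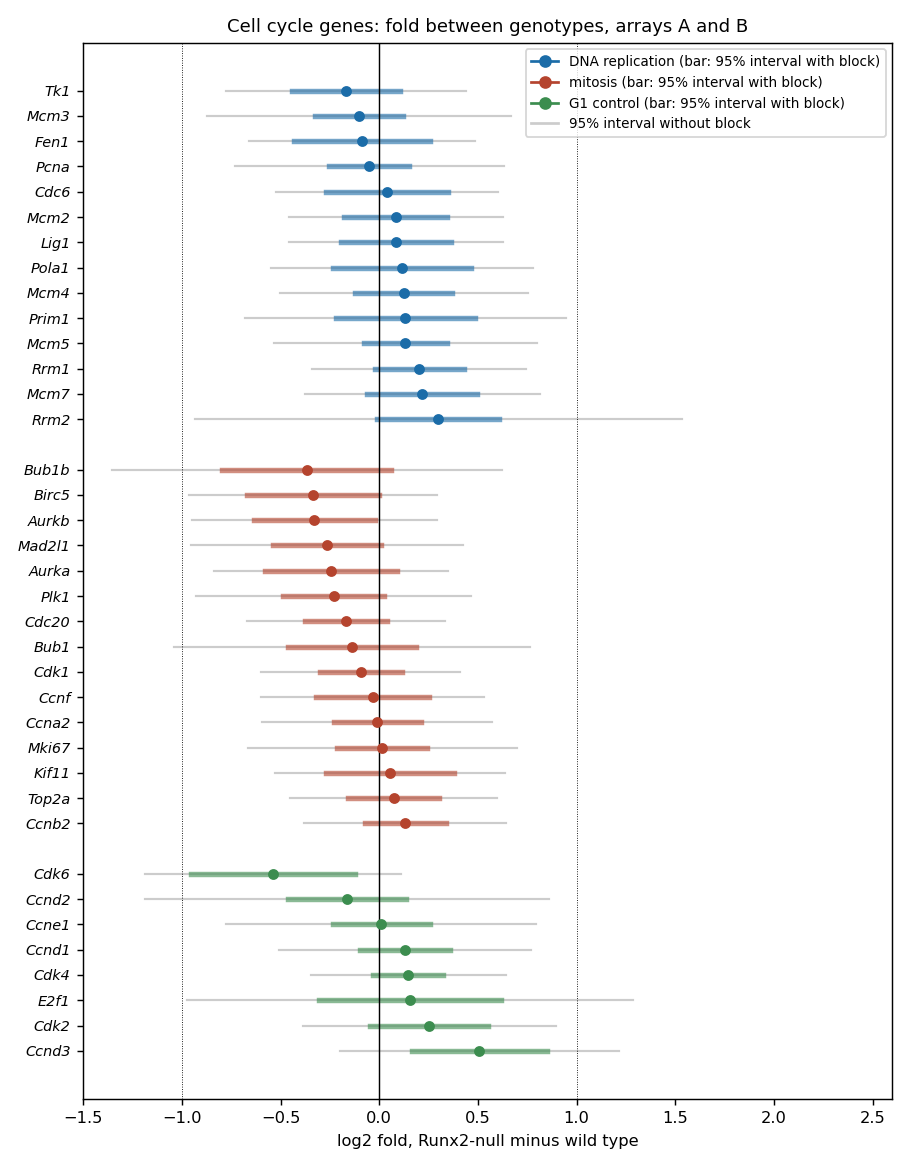
Log2 fold between genotypes (Runx2-null minus wild type, x axis) of the 37 tested genes (rows), with the 95% interval with the replicate block as a coloured bar and without it as a grey line. Dotted lines mark 2-fold either way. All coloured bars stay between them, and the folds run from -0.54 for Cdk6 to 0.51 for Ccnd3.

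The narrow intervals go with bright probe sets. The median percentile of signal of the 37 genes was 86.8, ranked among all probe sets of the array type, tested or not. For all tested genes the median was 73.6 on the same scale. The median absolute fold was 0.13, against 0.18 over all genes. The step between the scan batches was larger than the genotype fold in 27 of the 37 genes (73.0%), against 66.6% of all genes. Signals of the genotypes did not overlap in 9 of the 37 genes (3 higher and 6 lower in Runx2-null pools), against 26.7% of all genes. The Runx2-null pool was the higher one in both batches for 14 genes and the lower one in both for 12, against 32.4% and 28.7% of all genes.

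The replication genes began with the helicase. Mcm5 had signals of 617 and 493 in the Runx2-null pools, against 611 and 413 in the wild-type pools. The first pools of the genotypes were nearly equal and both second pools were lower, so the groups overlapped (log2 fold 0.13 ± 0.10, SE with the block; adjusted p = 0.541 with the block and 0.999 without, limma). Mcm2, another subunit, had 214.6 and 191 in Runx2-null pools, against 192 and 189 in wild-type pools, a log2 fold of 0.08. Mcm7 had 335 and 381 in Runx2-null pools, against 353 and 266 in wild-type pools. Its difference lay in the second pools (0.51, against -0.07 in the first), and the log2 fold was 0.22 with a 95% interval of -0.06 to 0.50 with the block. Mcm4 and Mcm3, of the same ring, had log2 folds of 0.12 and -0.10.

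Pcna, the sliding clamp that holds the polymerase on DNA, had 458 and 671 in Runx2-null pools, against 499 and 662 in wild-type pools. Both second pools were the high ones, and the log2 fold was -0.05 (95% interval with the block -0.25 to 0.15). The initiation factor Cdc6, the polymerase alpha and primase genes Pola1 and Prim1, the ligase Lig1 and the flap nuclease Fen1 had log2 folds between -0.09 and 0.13. Among these 5, the groups did not overlap in Lig1, higher in Runx2-null pools, nor in Fen1, lower there.

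The nucleotide supply held the replication genes with the lowest p-values. Rrm1, the large subunit of ribonucleotide reductase, had 319 and 361 in Runx2-null pools, against 273 and 316 in wild-type pools. Both Runx2-null pools were above both wild-type pools, by 0.22 and 0.19 on the log2 scale within the batches (log2 fold 0.20 ± 0.11, SE with the block; adjusted p = 0.35 with the block and 0.999 without, limma). Rrm2, the small subunit, which is made in S phase, had 255 and 147 in Runx2-null pools, against 249 and 97 in wild-type pools. The pools separated by scan batch and not by genotype: the genotype difference was 0.03 in batch 1 and 0.57 in batch 2 (log2 fold 0.30, 95% interval with the block -0.01 to 0.61). Thymidine kinase, Tk1, had 261 and 270 in Runx2-null pools, against 350 and 256 in wild-type pools, a log2 fold of -0.17. The signal of 1 wild-type pool was high and the other three were alike. Thymidylate synthase, Tyms, was measured only on array C and lay below the filter on dim probe sets.

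Mki67, the classic marker of cycling cells, had 325 and 485 in Runx2-null pools, against 353 and 438 in wild-type pools. The groups overlapped, and the log2 fold was 0.01 with a 95% interval of -0.21 to 0.24 with the block and -0.67 to 0.70 without. Top2a, the topoisomerase that untangles chromosomes, had 284 and 308 in Runx2-null pools, against 269 and 293 in wild-type pools (log2 fold 0.07). Cdk1, whose promoter is printed above, had 399 and 434 in Runx2-null pools, against 422 and 467 in wild-type pools (log2 fold -0.09, 95% interval with the block -0.30 to 0.12). For all of these the pools of a genotype differed by about as much as the genotypes, or more. The cyclins Ccna2, Ccnb2 and Ccnf, which partner with kinases in S phase and mitosis or form a ubiquitin ligase, and the spindle motor Kif11 had log2 folds of -0.01, 0.13, -0.03 and 0.05.

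The mitotic kinases and checkpoint genes had the more negative folds, and none passed the test. Aurkb, the kinase of the chromosomal passenger complex, had 107 and 145 in Runx2-null pools, against 157 and 160 in wild-type pools. Both Runx2-null pools were below both wild-type pools (log2 fold -0.33 ± 0.14, SE with the block; adjusted p = 0.264 with the block and 0.973 without, limma), by 0.52 in batch 1 and 0.13 in batch 2. Birc5, which encodes survivin, a partner of Aurkb in that complex, had 115 and 148 in Runx2-null pools, against 183 and 151 in wild-type pools. These groups did not overlap either, but nearly all of the difference lay in batch 1 (-0.64, against -0.03 in batch 2; adjusted p = 0.295 with the block and 0.971 without, limma).

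Mad2l1 and Bub1b encode inhibitors of Cdc20 in the spindle checkpoint. Mad2l1 had 133 and 175 in Runx2-null pools, against 157 and 218 in wild-type pools, and its groups overlapped (log2 fold -0.26, 95% interval with the block -0.54 to 0.01). Bub1b had 141 and 274 in Runx2-null pools, against 198 and 335 in wild-type pools (log2 fold -0.37, 95% interval with the block -0.80 to 0.06). In both genes each second pool exceeded the first pool of its own genotype, and the Runx2-null pool was the lower in each batch. Cdc20 had 388 and 426 in Runx2-null pools, against 437 and 479 in wild-type pools. Its groups did not overlap and the within-batch differences were alike, -0.17 in both (adjusted p = 0.407 with the block and 0.999 without, limma). Aurka, a centrosome kinase, had 78.1 and 93.7 in Runx2-null pools, against 98.0 and 107.7 in wild-type pools, also without overlap (log2 fold -0.25). Plk1 and Bub1, kinases of mitotic entry and of the checkpoint, had log2 folds of -0.23 and -0.14. Dimmer tested probe sets of Plk1 gave -0.19 and, with the opposite sign, 0.10, and that of Bub1 gave -0.13.

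**Figure D2:**
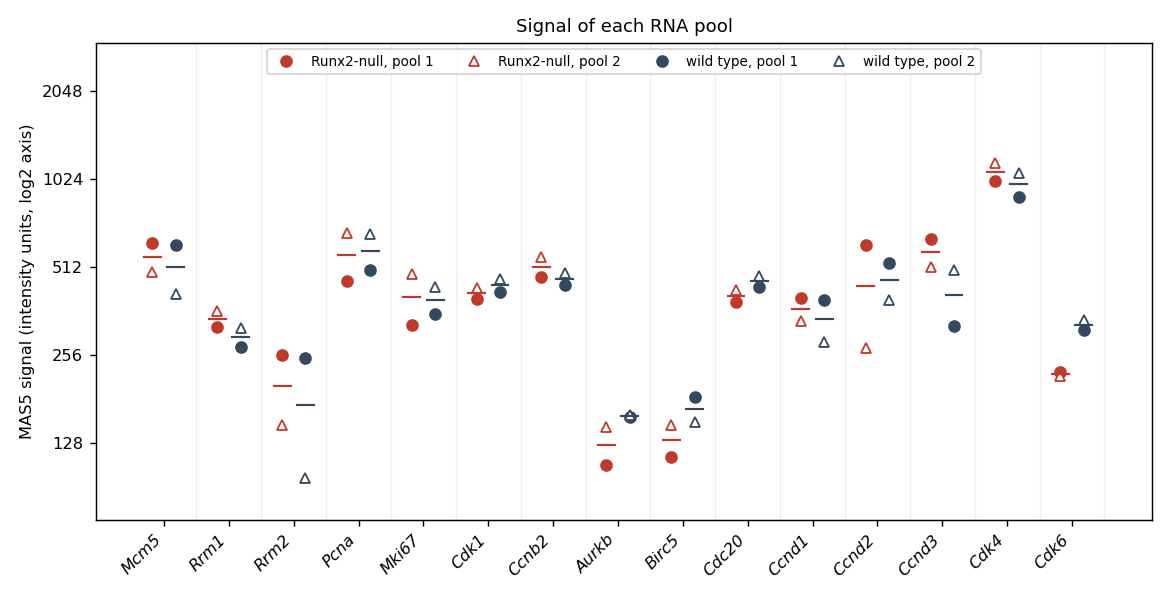
MAS5 signal (y axis, log2 scale) of each RNA pool for 15 genes (x axis), with Runx2-null pools left of wild-type pools, circles for pool 1, triangles for pool 2 and a line at the mean of the 2 pools. In Rrm2 and Pcna pools of the same number lie together, and in Cdk6 both Runx2-null pools (223 and 217) lie below both wild-type pools (313 and 338).

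The G1 genes held the widest folds of the set. Cdk6, a kinase that pairs with D-type cyclins, had 223 and 217 in Runx2-null pools, against 313 and 338 in wild-type pools. The pools of each genotype were close together and the groups lay apart in both batches (-0.46 and -0.61), for a log2 fold of -0.54 ± 0.18 (SE with the block and adjusted p = 0.179 with the block and 0.774 without, limma). Its 95% interval with the block, which is not corrected for the number of genes, was -0.95 to -0.12. This probe set is on array B, where 2 further Cdk6 probe sets were below the filter on dim values. Of these, 1 ran the other way without overlap, with 19.3 and 22.8 in Runx2-null pools, against 10.3 and 5.9 in wild-type pools, and the other overlapped.

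Ccnd3, cyclin D3, had 640 and 513 in Runx2-null pools, against 321 and 501 in wild-type pools. The wild-type pool of batch 1 was low and the other three were high: the genotype difference was 0.98 in batch 1 and 0.03 in batch 2 (log2 fold 0.51 ± 0.16, SE with the block; adjusted p = 0.116 with the block and 0.847 without, limma). Its second probe set, on array B, had 140 and 96.4 in Runx2-null pools, against 149 and 96.3 in wild-type pools. That probe set followed the batch and not the genotype, with a log2 fold of -0.04.

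Ccnd1, cyclin D1, had 402 and 336 in Runx2-null pools, against 396 and 283 in wild-type pools (log2 fold 0.13, with 0.22 for its other probe set on array A). Ccnd2, cyclin D2, had 609 and 270 in Runx2-null pools, against 528 and 394 in wild-type pools. Here the genotype difference turned between the batches, 0.20 in batch 1 and -0.53 in batch 2. Cdk4, the commoner partner of the D-type cyclins in many tissues, had 1007 and 1167 in Runx2-null pools, against 887 and 1078 in wild-type pools (log2 fold 0.15, 95% interval with the block -0.03 to 0.33). Its other probe set had the opposite sign (-0.11). The sign thus turned with the batch in Ccnd2 and with the probe set in Ccnd3 and Cdk4.

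Ccne1, cyclin E1, had 281 and 198 in Runx2-null pools, against 293 and 187 in wild-type pools, a log2 fold of 0.01. Its kinase Cdk2 had 158 and 137 in Runx2-null pools, against 143 and 105 in wild-type pools (log2 fold 0.25, 95% interval with the block -0.05 to 0.55). In both genes the second pools were lower than the first. E2f1, an activator of S phase genes, had 38.6 and 66.1 in Runx2-null pools, against 29.3 and 66.9 in wild-type pools (log2 fold 0.16), while its dimmer probe set had a log2 fold of -0.41 with an interval that also crossed zero.

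**Figure D3:**
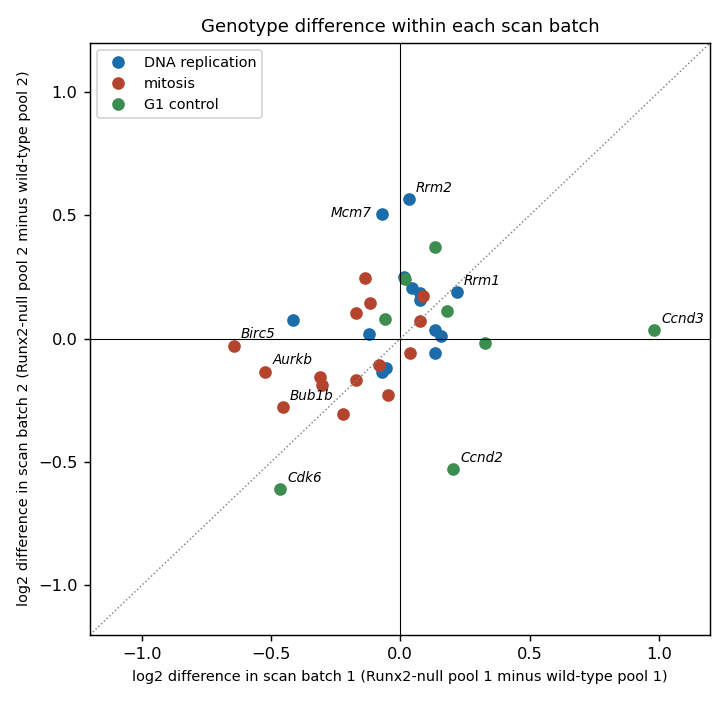
Genotype difference on the log2 scale (Runx2-null minus wild type) in scan batch 1 (x axis) and scan batch 2 (y axis) for the 37 genes, coloured by group, with the line of equality dotted. Ccnd3 stands at 0.98 and 0.03, Ccnd2 at 0.20 and -0.53, and Cdk6 at -0.46 and -0.61.

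By group and batch, the median replication difference was 0.04 in batch 1 and 0.12 in batch 2, the median mitosis difference was -0.17 and -0.10, and the median G1 difference was 0.16 and 0.06. Of 14 replication genes, 8 were higher in both batches in Runx2-null pools and 2 lower in both. Of 15 mitosis genes, 2 were higher in both and 9 lower in both. Among all genes, 32.4% were higher in both and 28.7% lower in both. The difference between the replication and mitosis medians was not tested, since the genes were chosen and the pools share their arrays. Leaving out a pool moved the G1 median between -0.03 (without wild-type pool 2) and 0.26 (without Runx2-null pool 2), and the mitosis median between -0.03 (without Runx2-null pool 1) and -0.23 (without Runx2-null pool 2).

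Other genes of the same pathways were listed and read on the same arrays, and 0 of them were called by limma with or without the block. Of 43 tested mitosis genes outside the set, the median log2 fold was 0.06, the opposite sign to the mitosis genes of the set. Unadjusted p-values under 0.05 with the block numbered 4 higher and 1 lower, a smaller share than the 15.5% of all genes. Kif20a, a motor of cytokinesis, had 226 and 230 in Runx2-null pools, against 175 and 181 in wild-type pools (log2 fold 0.34; adjusted p = 0.153 with the block and 0.909 without, limma). The suffix of the Kif20a probe set marks possible cross-hybridization. Stmn1, which destabilises microtubules, had a log2 fold of 0.23. Both genes were higher in each Runx2-null pool than in any wild-type pool.

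Of 36 further replication genes the median log2 fold was 0.06, and 3, all higher, had an unadjusted p under 0.05 with the block, again a smaller share than the 15.5% of all genes. Orc5, a subunit of the origin recognition complex, had 96.1 and 95.4 in Runx2-null pools, against 52.7 and 61.1 in wild-type pools, without overlap (log2 fold 0.69; adjusted p = 0.0548 with the block and 0.530 without, limma). The clamp loader gene Rfc2 stood at 0.29 (adjusted p = 0.232 with the block and 0.978 without, limma). For 18 genes of the E2F and Rb network and its regulators the median was -0.08, and 2, both lower, had an unadjusted p under 0.05 with the block, against the same 15.5%. Myc, a growth factor-induced activator of the cycle, had 55.3 and 58.6 in Runx2-null pools, against 91.6 and 95.6 in wild-type pools. The pools of each genotype were close, the groups lay apart and the batches gave -0.66 and -0.65 (adjusted p = 0.0641 with the block and 0.562 without, limma). Foxm1, an activator of mitotic genes, had 338 and 116 in Runx2-null pools, against 313 and 269 in wild-type pools, so that 1 Runx2-null pool made its log2 fold of -0.53.

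Markers of other cells of the humerus moved with genotype beside these values. With the block, 6 of 7 tested hypertrophic chondrocyte markers were called lower in Runx2-null pools (median log2 fold -1.26), against 1.48% of all genes, with summed signals of 351 and 220 in Runx2-null pools, against 2964 and 3830 in wild-type pools. Of 10 osteoblast markers 8 were called lower (median -1.58), with sums of 11427 and 7711 in Runx2-null pools, against 15854 and 13684 in wild-type pools, and these lists share Ibsp and Alpl. All 3 tested osteoclast markers were called lower (median -2.32; sums 235 and 375 in Runx2-null pools, against 1746 and 1855 in wild-type pools). The lists held 8 hypertrophic, 13 osteoblast and 9 osteoclast markers before the filter. Markers dim in Runx2-null pools, such as Mmp9 (10 and 3.4, against 812 and 618 in wild-type pools), passed it only through the wild-type arrays. For such genes a lower value was nearly fixed in advance, so their calls are not separate support. Without the block the calls were 2 of 7, 1 of 10 and 1 of 3, and with the block but without the intensity trend, a setting chosen after seeing the data, 2 of 7, 2 of 10 and 1 of 3. Ibsp, a bone matrix gene called in all of these fits, read 8.4 and 5.4 in Runx2-null pools, against 1680 and 2221 in wild-type pools. It too passed the filter only through the wild-type arrays, so its calls are not separate support either. In pooled tissue, fewer cells of a type and less RNA per cell cannot be told apart. Their part in the values of the cell cycle genes was not tested.

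The labelled tissue carried cartilage markers at high signal: the 11 tested ones had a median percentile of 98.6 among all probe sets of their array type. With the block, 1 of them was called higher (Mia, log2 fold 0.50) and 1 lower (Hapln1, -0.71), against 0.917% and 1.48% of all genes, and without it neither was called (adjusted p = 0.578 and 0.492, limma). Their median was -0.02. Cdkn1a, the cyclin-dependent kinase inhibitor p21, stood in the hypertrophic list and had 121 and 19.3 in Runx2-null pools, against 216 and 80 in wild-type pools. It was called lower only with the block (log2 fold -1.26; adjusted p = 0.00654 with the block, 0.924 without it and 0.261 with the block but no intensity trend, limma), and its groups overlapped, the second pools lying far below the first. The 17 skeletal muscle markers moved with the pool number, which is also the scan batch. Their sums were 6927 and 1311 in Runx2-null pools, against 5771 and 1650 in wild-type pools, with a median log2 fold of 0.04. Endothelial (median -0.46), macrophage (-0.16) and erythroid (-0.15) lists held 0 called genes of 8, 6 and 7, by limma with the block. In the same fit 4, 4 and 1 genes had an unadjusted p under 0.05, against 15.5% of all genes. Those of the endothelial and erythroid lists were all lower in Runx2-null pools, while the macrophage list had 2 higher and 2 lower.

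**Figure D4:**
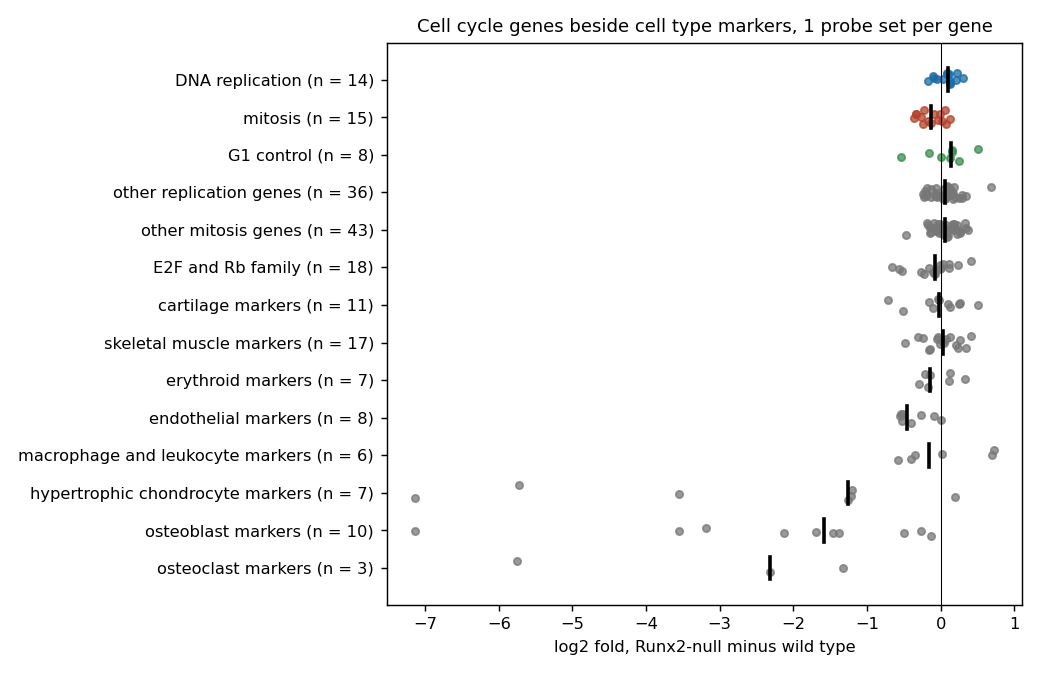
Log2 fold (Runx2-null minus wild type, x axis) of each tested gene (points) by list (rows), with a black bar at the list's median and the number of genes tested in the row label. The replication, mitosis and G1 genes lie between -0.54 and 0.51. Medians of the hypertrophic, osteoblast and osteoclast markers lie at -1.26, -1.58 and -2.32. These lists include markers that passed the filter only through the wild-type arrays.

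Array C was kept apart because its arrays did not follow the pattern by pool number seen on arrays A and B. On arrays A and B, the 66 hybridization controls of a type correlated best between pools of the same number (r of 0.987 to 0.996, against 0.952 to 0.966 between pools of a genotype). On array C this was turned round, with 0.953 and 0.950 for pools of the same number and 0.984 and 0.991 for arrays labelled with the same genotype. Unadjusted p-values under 0.05 without the block were also more frequent there, 19.4% of probe sets against 2.06% on arrays A and B. The scan records split array C by pool number as on the other arrays, so they do not follow this pattern. Whether its arrays were mislabelled or were hybridized by genotype was not tested. With wrong labels, its folds would not be those of the genotypes. With hybridization by genotype, genotype and hybridization could not be told apart even if the labels were correct.

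As labelled, 0 of the 11 cell cycle probe sets tested on array C passed the test with or without the block, by limma. Over all array types, the same fits called 505 of 23193 probe sets with the block and 6 without. Of the 11, 4 had an unadjusted p under 0.05 without the block, against 19.4% of all tested probe sets on array C. Signals of the labelled genotypes did not overlap in 8 of the 11 on array C, where a share for all probe sets is not given. Ccnd1 had 26.0 and 40.7 there on arrays labelled Runx2-null, against 171 and 166 on arrays labelled wild type (log2 fold -2.06; adjusted p = 0.0506 with the block and 0.122 without, limma). On array A the same gene had a log2 fold of 0.13. Aurkb had 212 and 200 on arrays labelled Runx2-null, against 136 and 130 on arrays labelled wild type, a log2 fold of 0.60 where array A gave -0.33. Mcm5 gave -0.60 on array C and 0.13 on array A. The Tk1 values on array C, -0.56 and -0.41, had the sign of array A (-0.17), as did that of Rrm1 (0.62, against 0.20). Mcm6, below the filter on array A, was tested only on array C, where its probe sets gave 0.38 and -0.19.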

How the data were processed

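Total RNA (10 µg per sample) was labelled with biotin and hybridized to the 3 Affymetrix U74 version 2 arrays. The deposited values are signal intensities computed with MAS5, per the submitters' processing notes. Their trimmed means, without the lowest and highest 2%, were 100.02 to 100.06 on the 12 arrays, and the median signal was 37.5 to 60.4, so arrays were not rescaled. A gene was named from the platform annotation where a probe set had 1 symbol (29131 of 36701; 724 had several and 6846 none). Probe sets whose suffix marks possible cross-hybridization were kept, among them those read for Kif20a, E2f1 and Mcm3, and for Aurkb and Mcm5 on array C. A constant of 7, 13 or 10 (arrays A, B and C, near the 20th percentile) was added before log2. Probe sets above the 40th percentile on at least 2 of 4 arrays were tested, 23193 in all and 15601 on arrays A and B. Folds were fitted with limma 3.58.1 in R 4.3.3 (lmFit, then eBayes with an intensity trend), once per array type, with Benjamini-Hochberg adjustment over all 3 types.

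The scan records in the deposited files put pools of the same number in 1 scan batch, and deviations from the group means correlated between pools of the same number (r = 0.764 on array A, 0.595 on B and 0.0557 on C). The fit was therefore also made with the number as a block. With 2 pools per genotype, residual degrees of freedom were 2 without the block and 1 with it, and the number of arrays limits the precision.

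The 40 genes and all lists were chosen with earlier results of these data known. Named genes were 15 fixed ones, the 3 of each group and the 2 of each further pathway list with the lowest p with the block. Outside this rule, signals are also given for Tk1, Bub1b, Cdc20 and Aurka, all with negative folds on arrays A and B. The other members are given by their folds. Promoters came from RefSeq (GRCm38.p6). Of the 56 probe sets for the set on arrays A and B, 11 were below the filter, and of the 15 on array C, 4. Alternatives were other constants, filters, normalization and summaries, the block, and leaving out each pool.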

Additional observations from a re-analysis of the deposited data

How the results depend on the processing

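Without the block, 6 of all 23193 probe sets were called, and this count moved with nearly every setting: 11 with quantile normalization, 2 with a constant of 1 and 13 with 50, 11 with the filter at the 60th percentile, 10 without cross-hybridizing probe sets, 2 without the intensity trend and 5 to 22 when each pool was left out. The replicate block gave 505 and, in settings chosen after seeing the data, 343 on arrays A and B alone, 620 with quantile normalization, 110 with no filter and 6 without the intensity trend, so most of its calls rest on that trend. Of the cell cycle probe sets, 0 were called under all of these except the block with quantile normalization, which called 1, the Ccnd1 probe set on array C (log2 fold -2.04, adjusted p = 0.0325, limma). Leaving out each pool moved the median log2 fold over -0.04 to 0.03 for all 37 genes, 0.037 to 0.083 for replication, -0.23 to -0.032 for mitosis and -0.034 to 0.26 for G1 genes. Averaging all probe sets of a gene gave 0.015 for G1 genes. Of 20 named genes, each read from its probe set of the main fit, signs turned only when a pool was left out. Mki67, Ccnd2 and E2f1 turned without wild-type pool 1 or Runx2-null pool 2. Mcm5, Pcna, Rrm2 and Ccne1 turned without wild-type pool 2 or Runx2-null pool 1, and Ccnd1 without wild-type pool 2. Without cross-hybridizing probe sets 19 genes were read, since that of E2f1 was dropped. The other E2f1 probe set had the opposite sign, with a log2 fold of -0.41. A left-out pool leaves 1 pool in a genotype, which was assumed to vary like the other genotype. The cause of these changes was not tested. With 2 pools a genotype, differences the size of those between pools could not be shown, and dim probe sets were not tested.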
